A study of Mus musculus with 17 samples.

Results

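The transcripts that set common lymphoid progenitors (CLP) apart from 4 myeloid progenitor fractions of mouse bone marrow were examined on 17 expression arrays, 3 of CLP and 14 of the other fractions. For every autosomal gene the CLP level was set against the mean of the 4 myeloid fraction means, and genes were picked whose 3 CLP arrays all lay above, or all lay below, the 14 others. Of 17401 autosomal genes, 427 lay above (2.45%) and 622 lay below (3.57%). The first set is called CLP-high and the second CLP-low in what follows.

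All fractions were sorted by flow cytometry from the marrow of adult mice aged 10 to 14 weeks, and no label names a strain, a genotype or a treatment. CLP were gated as Lin-Sca1lowKitlowIL7r+Flk2+ cells. The references shared the Lin-Sca1-Kit+ gate: preGM (Itga2b-FcgRlowSlamf1-Englow, 3 arrays), preMegE (Itga2b-FcgRlowSlamf1+Englow, 5 arrays), MkP (Itga2b+Slamf1+, 3 arrays) and preCFUE (Itga2b-FcgRlowSlamf1+Enghigh, 3 arrays). Each array was assigned by the gate in its title. A free-text description shared by all arrays names another gate and was not used. Nothing in the labels tells if replicate arrays stem from different animals or different sorts. The p-values therefore cover array-to-array spread, which could be technical in part. The names CLP, preGM, MkP and preCFUE are the field's usual ones for these gates, and the design text itself uses preMegE.

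CLP are the marrow cells from which B cells, and with them T and NK cells, can be grown, and they respond to interleukin 7 through its receptor. In early B development the factors Ebf1, Foxo1 and the E proteins switch on the recombinase genes Rag1 and Rag2, the surrogate light chain and the signalling parts of the pre-B receptor. The fractions used as the reference lead toward granulocytes and monocytes (preGM), toward megakaryocytes and red cells together (preMegE), or toward one of those lines (MkP and preCFUE). There Gata2, Klf1, Tal1 and their partners act, with the proteins of heme synthesis and of platelets as later products.

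Array medians ran from 16 to 19.1 intensity units in the series. CLP replicates 1 and 3 had the highest medians (19.05 and 19.07) and the lowest 75th percentiles (50.6 and 51.4). Replicate 2 of CLP had 17.57 and 60.9, and the 75th percentiles of the myeloid arrays ran from 52 to 74.4. The 3 CLP arrays were less alike than those of the other fractions, whose correlations with their own fraction ran from 0.966 to 0.990. Replicates 1, 2 and 3 correlated with the remaining CLP arrays at 0.959, 0.949 and 0.949 over genes, and replicate 2 correlated with the preGM arrays at 0.961. The ratio of 3-prime to 5-prime Gapdh probe sets, a measure of RNA shortening, was 5.12, 3.00 and 4.08 (log2) in CLP and lay between 2.72 and 4.21 in the myeloid arrays. By that correlation CLP replicate 2 stood nearer to the myeloid arrays than the other CLP arrays did, and counts are also given without it. Whether its RNA, its sort or its cells differed was not tested.

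The gate was checked against transcripts. Il7r, the interleukin 7 receptor used in the sort, had 1296, 2367 and 1593 units on the CLP arrays, against 9.51 to 86.7 with a median of 13 on the myeloid arrays. Flt3, which encodes Flk2, had 2304, 2389 and 1662 in CLP, against 35.5 to 1126 with a median of 52.1 in the myeloid arrays. Both follow from the gate and are no finding. Flt3 was brightest among the references in preGM, at 1090.1 ± 50.5 (SD, n = 3). The Kit receptor, sorted as low in CLP, had 87, 173 and 71.1, against 136 to 918 in the myeloid arrays, so its groups overlapped while its mean differed (log2 difference -1.87 ± 0.22, SE, adjusted p = 2.61e-05, limma). Itga2b had 45.8 to 50.9 in CLP, against 59.1 to 2343 elsewhere. Slamf1 (-0.94 ± 0.082, adjusted p = 1.1e-06), Eng (-0.47 ± 0.12, adjusted p = 0.00923) and Fcgr3 (-0.26 ± 0.08, adjusted p = 0.0288) were lower in CLP in limma with overlapping arrays, and Fcgr2b did not pass (-0.19 ± 0.12, adjusted p = 0.259). The Slamf1 difference also follows from the gates, as preMegE, MkP and preCFUE were sorted as Slamf1+. In preGM, sorted as Slamf1-, the gene had 10.6 ± 1.75 units (SD, n = 3), against 10.4 to 13 in CLP. The calls of Eng and Fcgr3 were lost without CLP replicate 1 (adjusted p = 0.0535 and 0.0517, limma). That of Fcgr3 was lost without CLP replicate 2 or 3 as well (adjusted p = 0.0547 and 0.157). It was also lost with preGM out of the mean (-0.074, adjusted p = 0.559). Array weights (0.167), a 3-prime covariate (0.0626) and a replicate block (0.0761) removed it too (adjusted p, limma). Fcgr3 had 35 ± 8.21 units in preGM, against 13.1 ± 1.56 in CLP and 13 ± 0.954 in MkP (SD, n = 3 each). Averaged over its probe sets, Fcgr2b passed as lower (-0.22, adjusted p = 0.0403, limma). Under quantile normalization its value changed sign (0.095) and Eng did not pass (adjusted p = 0.755). Probe sets of a gene differed in size: a second Eng probe set gave -1.33, with every CLP array below the others, and a second Kit probe set gave -0.28.

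The CLP markers Ebf1, Rag1 and Il7r were bright in all 3 CLP arrays, which goes with the label but tests nothing, as Il7r is a gate gene and Ebf1 and Rag1 met the rule that chose the genes. Ebf1 had 1147, 647 and 1030.4 units in CLP, against 5.32 to 7.38 with a median of 6.06 in the myeloid arrays. Its groups stood apart by 4.83 on the log2 scale, the widest gap of any autosomal gene.

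Taking every gene, limma called 1709 higher in CLP (9.82% of those tested) and 3209 lower (18.4%) at an adjusted p under 0.05. A log2 difference here is that of log2(intensity + 16), which understates the change of dim genes. The median difference over all autosomal genes was 0.003. Quantile normalization gave 2236 higher and 2292 lower, so the share of calls that were higher moved to 49.4%, against 34.7% on the deposited scale. The calls depended on single CLP arrays: leaving out replicate 1, 2 or 3 gave 1253, 2464 or 1069 higher and 1939, 4023 or 1760 lower. In 73.9% of the lower calls, replicate 2 was the CLP array nearest to the myeloid level.

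Of the 427 CLP-high genes, 421 were also called higher by limma, with a median difference of 0.99 and 83 genes past 2. Of the 622 CLP-low genes, 612 were called lower, with a median of -1.13 and 86 genes past -2. Both measures use the same values, so neither is independent of the other. A mean intensity under 16 was found for 88 CLP-high and 10 CLP-low genes. The size of the difference was under 0.5 for 116 and 35. Most sets of arrays were only just apart: the median gap between the CLP arrays and the nearest myeloid array was 0.18 for CLP-high and 0.17 for CLP-low genes. A gap of at least 1 was left by 54 CLP-high and 36 CLP-low genes. Without CLP replicate 2, when 2 arrays are set against 14, 1208 genes lay above and 2327 below. Without replicate 1 the counts were 610 and 803, and without replicate 3 they were 592 and 754.

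At the edge of the rule stood genes whose fitted difference was still large. Znrf1 (gap 0.004, difference 1.20) and Tert (gap 0.008, difference 1.30), the telomerase reverse transcriptase, lay just inside on the high side. Spry1 (1.10) and Eef2k (1.19) lay just outside. Nomo1 (-1.12) and 4933431E20Rik (-1.51) were the last CLP-low genes inside, and Cenpq (-1.19) and Syde2 (-1.01) the first outside. The gaps of these 8 genes lay between -0.012 and 0.008, where a negative gap is an overlap.

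Other probe sets of the same genes were read as a check. Of the 427 CLP-high genes, 220 had at least 1 other, and 81 of these had another probe set with the CLP arrays above all others. No CLP-high gene had one that lay below. Among the CLP-low genes 402 had others and 106 had one separated the same way, but Gphn and Iftap each had one separated the opposite way. For these 2 genes, named after the values were seen, the direction depends on the probe set, as their differences were negative on the brightest probe set and positive on another (-1.22 for Gphn and -2.04 for Iftap on the brightest, 1.53 and 0.57 on the other).

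Lymphoid transcription factors were mostly higher in CLP: 16 of 25 measured list members passed the test as higher and 0 as lower, with a median difference of 0.89, beside 9.82% higher and 18.4% lower of all genes. The CLP-high members numbered 7, beside 2.45% of all genes, among them Ebf1 (5.40 ± 0.11, adjusted p = 4.9e-13, limma), which specifies the B lineage. Foxo1, which acts upstream of Rag1 and Il7r in early B cells, had 1033, 925 and 981 in CLP, against 141 to 286 with a median of 166 in the myeloid arrays. That is a difference of 2.40 ± 0.15 (adjusted p = 2.77e-08), with arrays that agreed closely and a gap of 1.64. Unlike Ebf1, whose myeloid values lay near the lowest of the table, Foxo1 was read well above that floor in every fraction. Of its 3 other probe sets, the brighter ones also had every CLP array above the others (1.41 and 1.44), and the dimmest gave -0.08.

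Satb1, a chromatin organizer of lymphoid precursors, had 1749.5, 2651 and 1655 units in CLP, against 12.2 to 1384 with a median of 51.1 in the myeloid arrays. The high myeloid values were those of preGM, at 1284 ± 162 (SD, n = 3), so the gap was 0.26 while the difference from the mean of all 4 fractions was 4.20 ± 0.19 (adjusted p = 1.27e-09, limma). Pou2af1, the OCA-B coactivator of B cells, had 62.2, 130.1 and 36.5 in CLP, against 7.44 to 9.75 in the others, and its CLP arrays spread widely. Ets1 (2.15), Foxp1 (1.96) and Irf4 (0.93) completed the set of separated factors. For Ets1, CLP replicate 3 had 115 units, far under the 343 and 353 of the others.

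Not every factor of the B program stood apart. Pax5, which fixes B commitment, was dim and touched the myeloid range, with 25.4, 24.6 and 37.3 units in CLP, against 11.2 to 25.1 with a median of 16 elsewhere (0.46 ± 0.096, adjusted p = 0.00274, limma). Irf8 was called higher (3.64 ± 0.19) with 978, 1699 and 810.05 in CLP, yet preGM had 1509 ± 238 and the groups overlapped. Of the 9 members that did not pass, Bcl11a (0.26 ± 0.16, adjusted p = 0.238) and Tcf12 (-0.41 ± 0.22, adjusted p = 0.194), an E protein, were the brightest. Averaged over its probe sets, Bcl11a passed as higher (0.28, adjusted p = 0.00905, limma). Without CLP replicate 2, Tcf12 passed as lower (-0.72, adjusted p = 0.0224, limma), and 2 list members in all did.

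**Figure D1:**
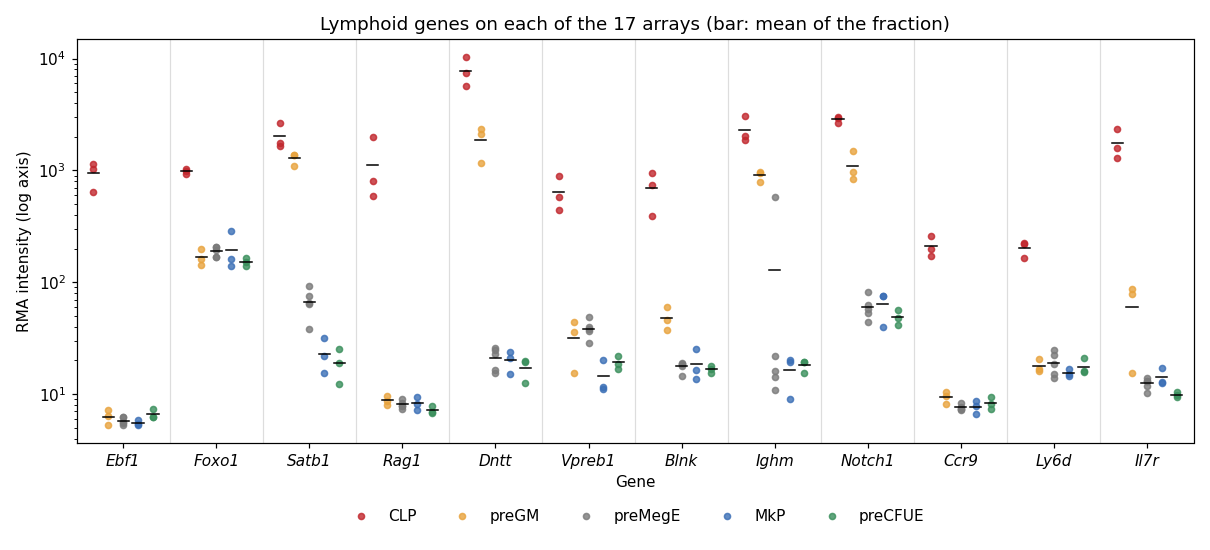
RMA intensity (vertical log axis) of 12 lymphoid genes on each of the 17 arrays, by fraction. Points are arrays, and bars are means of a fraction. For Ebf1, Rag1, Ccr9 and Ly6d all 14 myeloid arrays stay near the floor of the plot, while Satb1, Dntt, Ighm and Notch1 are also bright in preGM.

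The recombination and pre-B receptor genes were the list with the largest share of CLP-high members: 13 of 19 were CLP-high, and 17 passed limma as higher against 0 as lower (median difference 1.85). The first count stands beside 2.45% of all autosomal genes and the second beside 9.82%. Rag1, a subunit of the recombinase, had 797, 1991 and 591 units in CLP, against 6.75 to 9.67 with a median of 7.96 in the myeloid arrays (5.37 ± 0.22, adjusted p = 4.72e-10). Its partner Rag2 had 189, 294 and 169.6 in CLP, against 18.3 to 49.3 with a median of 30.3 elsewhere (2.20 ± 0.14, adjusted p = 2.63e-08). Neither gene had a myeloid array within 1 log2 unit of a CLP array, and in both cases CLP replicate 2 was the highest.

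Dntt, the terminal transferase that adds bases at joins of antigen receptor genes, showed the largest difference of all autosomal genes, 6.34 ± 0.19 (adjusted p = 2.54e-11, limma). It had 7463, 10275 and 5702 units in CLP, against 12.6 to 2332 with a median of 21.8 in the myeloid arrays. The preGM arrays again held the upper end, at 1866 ± 615 (SD, n = 3), while preMegE, MkP and preCFUE averaged 21 ± 4.79 (n = 5), 20 ± 4.41 and 17.3 ± 4.04 (n = 3 each).

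Among the parts of the pre-B receptor, Vpreb1 had 579, 889.95 and 441 units in CLP, against 11.2 to 48.6 with a median of 25.4 in the others (3.96 ± 0.19, adjusted p = 2.67e-09). It encodes one component of the surrogate light chain, and Igll1 encodes the other, at 191 to 319.9 in CLP, against 26.8 to 56.9 (2.21 ± 0.16). The heavy chain gene Ighm had 1873, 2012 and 3073 in CLP, against 9.12 to 969.8 with a median of 19.5. Its difference of 4.72 ± 0.66 (adjusted p = 0.000127) carried a large error. The array preMegE replicate 5 had 583 units and the other 4 preMegE arrays 10.8 to 22.03. The gene was still called without that array, and of its 10 other probe sets the brightest also had every CLP array above the others (4.25, gap 1.14). The 9 dimmest gave differences of -0.23 to 0.35. Cd79a, the signalling chain, was low in absolute terms, with 59.8 to 85.3 in CLP, against 11.6 to 19.5, and a small error (1.47 ± 0.083, adjusted p = 1.15e-08).

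Downstream of the receptor, the adaptor Blnk had 390.1, 948 and 736 units in CLP, against 13.7 to 60.7 with a median of 18.3 in the myeloid arrays (4.08 ± 0.18, adjusted p = 1.12e-09, limma). Prkcb, a protein kinase C, had 129 to 275, against 6.99 to 34 (2.65 ± 0.15). Plcg2, the phospholipase of the same pathway, had 1773 to 1935 in CLP, against 107 to 1368, and its brightest myeloid arrays were those of preGM at 1245 ± 109. The inhibitory receptor Cd22 did not pass (0.13 ± 0.13, adjusted p = 0.485): its arrays overlapped at 18.7 to 33.9 in CLP and 13.4 to 45.6 elsewhere.

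As 17 of these 19 genes were called higher together, their promoters were read for letters that Ebf1 and the E proteins are known to bind. Shown are 60-base stretches before the start site of the 5 CLP-high members of the list with the largest differences among those whose promoter holds an E-box, from RefSeq on build GRCm38.p6, with the E-boxes in capitals (CAGGTG, which reads CACCTG on the opposite strand, and also CAGCTG). They lie at chr2:101649635-101649694 (Rag1), chr19:40994349-40994408 (Blnk), chr16:16869311-16869370 (Vpreb1), chr7:122288996-122289055 (Prkcb, plus strand) and chr16:16864111-16864170 (Igll1). All but Prkcb are on the minus strand, and each is printed in the sense of its gene.
Rag1: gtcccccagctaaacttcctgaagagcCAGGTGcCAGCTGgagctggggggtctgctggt
Blnk: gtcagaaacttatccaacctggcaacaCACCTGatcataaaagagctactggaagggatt
Vpreb1: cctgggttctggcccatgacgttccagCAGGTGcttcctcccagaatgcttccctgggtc
Prkcb: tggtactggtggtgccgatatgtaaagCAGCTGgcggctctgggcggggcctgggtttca
Igll1: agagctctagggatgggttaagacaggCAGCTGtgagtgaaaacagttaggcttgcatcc

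Promoters of 300 bases, 250 before the start and 50 after it, were found for 14 of the 19 list members. Searched on both strands, CAGGTG or CAGCTG was present for 10 of these 14 genes and for 35.9% of all 27025 genes with a promoter in that table. The core CCCNNGGG of the Ebf1 motif was present for 2 of the 14, Igll1 and Cd22, and for 15.4% of all genes. The first E-box began 135 bases before the Rag1 start and a second one stood next to it. These matches describe letters and do not show binding.

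Receptors and survival genes of the interleukin 7 pathway were split. Of 20 measured members of the cytokine receptor and signalling list, 11 passed as higher and 3 as lower (median difference 0.50). Over all genes these shares were 9.82% and 18.4%. Beside Il7r and Flt3, the CLP-high members were Cish, an inhibitor induced by cytokine signals, with 159 to 179 in CLP, against 38.8 to 82.1 (1.27 ± 0.097, adjusted p = 2.76e-07), and Bcl2l11. Bcl2l11 encodes BIM, which promotes cell death, and had 862, 796 and 1003 units in CLP, against 138 to 560.3 with a median of 369.8 in the myeloid arrays (1.38 ± 0.20, adjusted p = 0.000152). Stat5a, the signal transducer below these receptors, was the only CLP-low member, with 128, 80.7 and 126 in CLP, against 199 to 527 with a median of 291 (-1.24 ± 0.15, adjusted p = 2.66e-05).

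Of 16 members of the Notch and T lineage list, 3 passed as higher and 0 as lower (median difference 0.10). Over all genes the shares were 9.82% and 18.4%. Notch1 was the single strong member. It had 2998, 2935 and 2635 units in CLP, against 39.6 to 1493 with a median of 60 in the myeloid arrays (4.34 ± 0.18, adjusted p = 4.72e-10, limma), and preGM stood between at 1101 ± 346. Hes1, a Notch target, was separated by a small step, with 38.8 to 44.9 in CLP, against 10.5 to 32 (0.64 ± 0.12, adjusted p = 0.00166). The T cell gene Cd3e did not pass, at 39.3 to 63.2 in CLP, against 30.7 to 66.9 (0.23 ± 0.14, adjusted p = 0.233).

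Homing genes included 2 that were CLP-high among 18 (7 higher, 4 lower, median difference 0.16). Over all genes the shares were 2.45%, 9.82% and 18.4%, and the 4 lower calls lie near the last. The summed level of the list overlapped between CLP (4769 to 6293) and preGM (5502 to 5997). Ccr9, the chemokine receptor of thymus and gut homing, had 199.8, 258 and 171 units in CLP, against 6.69 to 10.4 with a median of 7.98 in the myeloid arrays (3.20 ± 0.081, adjusted p = 3.83e-12). Cxcr4, which holds progenitors in the marrow, had 1024, 1200.3 and 673, against 72.6 to 311 with a median of 109 (2.65 ± 0.19, adjusted p = 1.1e-07). The integrin Itga4 did not pass (0.24 ± 0.16, adjusted p = 0.301), but passed as higher under quantile normalization (0.51, adjusted p = 0.0379, limma). The 4 lower calls fell to 2 without CLP replicate 1 and to 2 without replicate 3.

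On the lymphoid surface and signalling list, 16 of 24 members passed as higher and 2 as lower (median difference 0.76). These counts stand beside 9.82% and 18.4% of all genes. Of the list 6 were CLP-high, beside 2.45%. The list was not particular to CLP, as preGM overlapped. Its median per array against the myeloid mean was 0.66, 1.19 and 0.67 in CLP, and 0.73, 0.74 and 0.33 in preGM. On all other arrays it lay between -0.66 and 0.01. The preGM sums (9501 to 12161) fell inside the CLP range (8604 to 14167). Ly6d, which marks the CLP already turned to the B lineage, had 164, 219 and 223 units in CLP, against 13.9 to 24.9 with a median of 16.5 in the myeloid arrays (2.70 ± 0.10, adjusted p = 1.84e-10). Btla, an inhibitory receptor, had 197 to 386, against 10.4 to 121 (2.84 ± 0.24). Lax1 (1.09), Ltb (0.92), Sla2 (0.67) and Rasgrp1 (0.27) followed with smaller steps, and Rasgrp1 lay under 20 units on all arrays.

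MHC class II genes also stood higher in CLP, 6 of 9 by limma and 0 lower (median difference 0.76), beside 9.82% and 18.4% of all genes. Per array, the list median against the myeloid mean was 0.64, 0.86 and 0.70 in CLP, and 0.63, 0.43 and 0.14 in preGM. H2-Ob, a chain of the class II modulator DO, had 1673, 2549 and 1089 units in CLP, against 11.6 to 431 with a median of 266 in the others (3.59 ± 0.23, adjusted p = 4.73e-08). The invariant chain Cd74 (0.76 ± 0.10) and H2-DMb2 (0.80 ± 0.11) were CLP-high at low intensities, with 37.6 to 55.6 for Cd74 in CLP, against 13.7 to 34.9. The class II chain H2-Ab1 did not pass (0.25 ± 0.23, adjusted p = 0.433), its value changed sign without CLP replicate 2 (-0.050), and it passed as higher under quantile normalization (0.56, adjusted p = 0.032, limma).

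Outside these lists, the largest CLP-high differences included genes with other roles. Cmah, the hydroxylase that makes the sialic acid Neu5Gc, had 864, 1861 and 1152 units in CLP, against 17.1 to 48.5 with a median of 25.7 in the myeloid arrays (4.79 ± 0.17, adjusted p = 1.37e-10, limma). St6gal1, which attaches sialic acid to glycoproteins, had 811, 1038 and 269, against 7.6 to 40.9 with a median of 15.5 (4.30 ± 0.28, adjusted p = 6.11e-08). Both genes were separated by more than 2 log2 units, although CLP replicate 3 was well under the other CLP arrays for St6gal1.

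Gimap4, a GTPase of lymphocytes, had 474, 885 and 555 units in CLP, against 7.02 to 19.2 with a median of 10.8 in the myeloid arrays (4.52 ± 0.16, adjusted p = 1.1e-10). Fos, the immediate-early factor, varied widely within CLP, at 878, 496 and 2373, against 13.9 to 98.1 with a median of 40.2 (4.22 ± 0.34, adjusted p = 5.81e-07). CLP replicate 3 was the highest and replicate 2 the lowest. Cnn3, a calponin (4.40 ± 0.20), Sting1, the adaptor of DNA sensing (4.01 ± 0.063), and Kbtbd11 (4.00 ± 0.20) had gaps of only 0.45, 0.52 and 0.30. In each of them preGM was well above the other 3 references, for example 492 ± 58.6 for Sting1, against 9.42 ± 1.24 in preMegE.

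**Figure D2:**
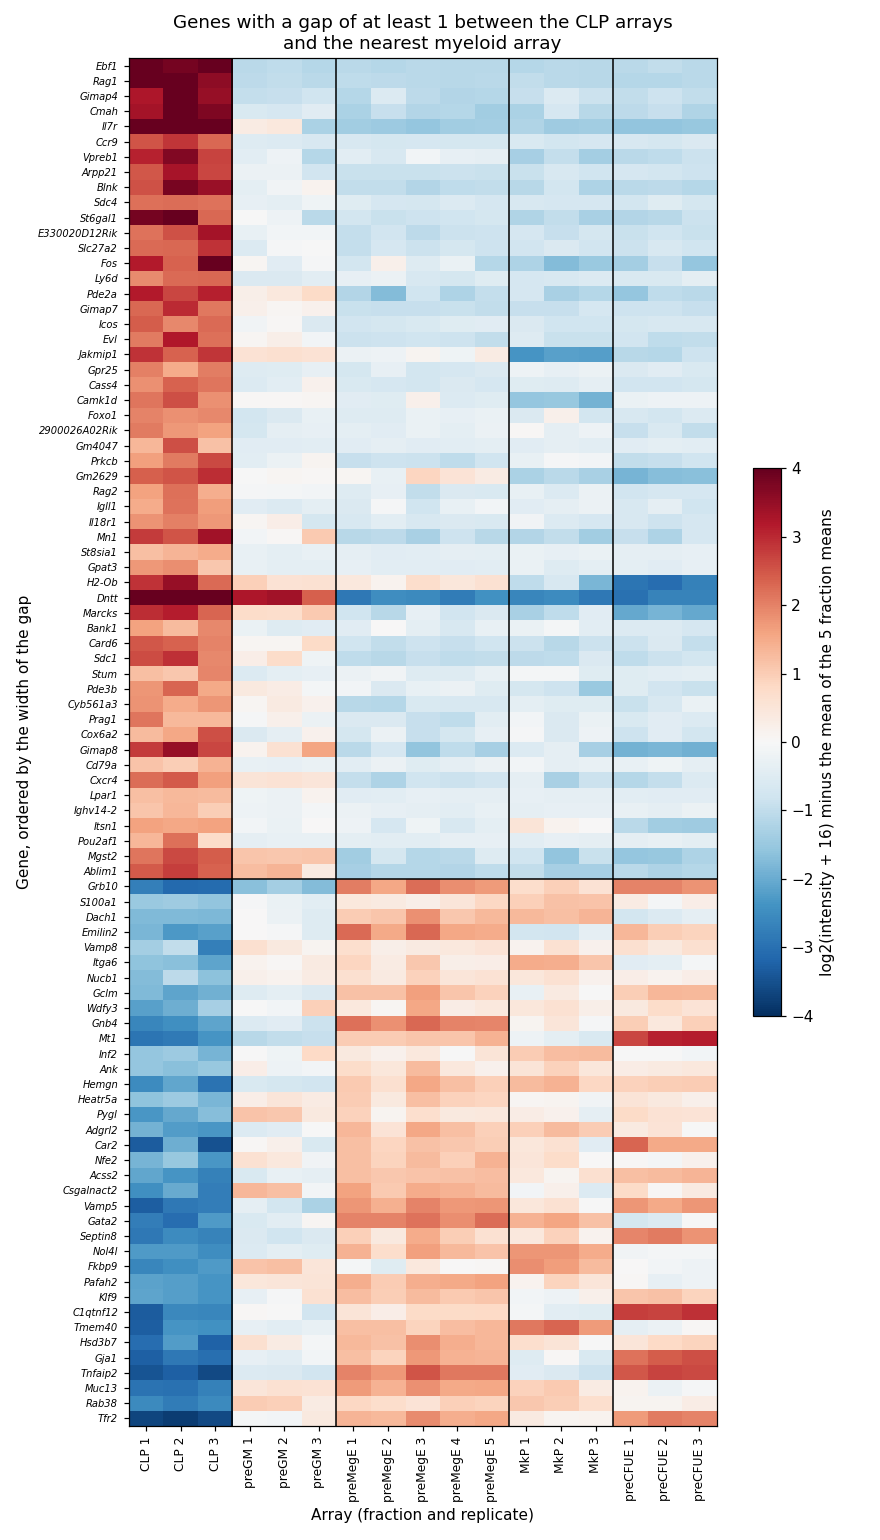
Heat map of the 54 CLP-high genes (upper block) and 36 CLP-low genes (lower block) with a gap of at least 1, with 1 column per array. Colour gives log2(intensity + 16) minus the mean of the 5 fraction means and saturates at 4 in either direction. The 3 CLP columns contrast with all others by the choice of genes, and preGM is the nearest fraction for 38 of the 54 CLP-high genes.

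The nearest reference for CLP-high genes was most often preGM. Of 427, the brightest myeloid fraction by mean was preGM for 224, MkP for 121, preMegE for 42 and preCFUE for 40. Among the 54 genes with a gap of at least 1, preGM was the nearest for 38, and for 14 of the 54 its mean was at least 1 log2 unit over that of the other 3 fractions. Leaving preGM out of the reference gave 812 genes with every CLP array above the others and 886 with every one below. With fewer reference arrays these counts can only rise, and no other whole fraction was left out, so they do not rank preGM. Cd93, a surface protein of early progenitors and early B cells, was graded, with preGM next to CLP. It had 2721, 3043 and 3561 units in CLP, 1873 ± 445 in preGM (SD, n = 3) and 17.6 on the lowest myeloid array. Against the mean of all 4 fractions, some genes were called higher that were far brighter in preGM. Mpo, the neutrophil peroxidase, had 737, 837 and 723 units in CLP and 7503 ± 923 in preGM (1.99 ± 0.36 against the mean of 4, adjusted p = 0.00101). Csf1r, the receptor of macrophage growth factor, had 337 to 526 and 1686 ± 264 (1.45 ± 0.23).

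**Figure D3:**
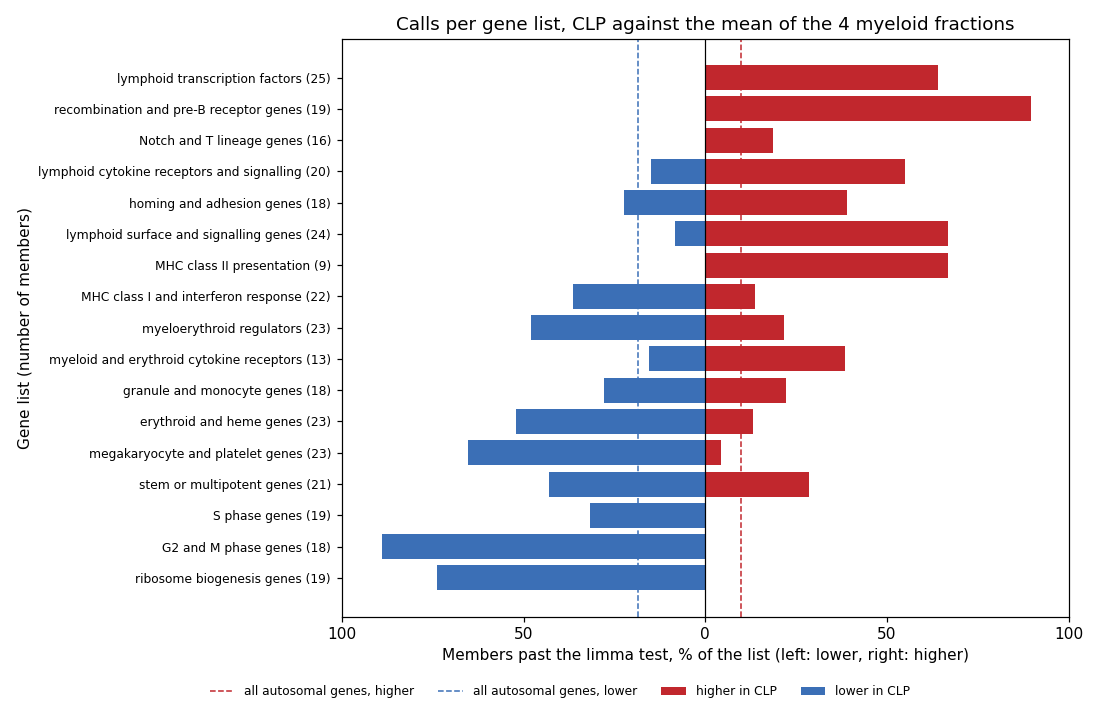
Share of each gene list (number of members in parentheses) called higher in CLP (bars to the right) or lower (bars to the left) by limma. Dashed lines give the same shares over all autosomal genes, 9.82% and 18.4%. Recombination and pre-B receptor genes reach furthest to the right, and G2 and M phase genes furthest to the left.

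Regulators of the myeloid and erythroid lines were mixed. Of 23 measured members of that list, 11 passed as lower and 5 as higher (median difference -0.39), and 6 were CLP-low. Per array, the list median against the myeloid mean was -0.35, -0.18 and -0.51 in CLP. It overlapped preCFUE (-0.2, -0.5 and -0.28) and MkP (-0.07, -0.15 and -0.38). The summed level was 7730 to 10286 in CLP, overlapping 9391 to 12026 in MkP. Higher sums were found in preGM (11330.5 to 12775), preMegE (13959 to 20182) and preCFUE (12449 to 13096). Gata2, a factor of stem cells and of the megakaryocyte and mast cell lines, had 46.8, 35.9 and 71.9 units in CLP, against 244 to 1970.5 with a median of 1028 in the myeloid arrays (-3.37 ± 0.17, adjusted p = 4.26e-09, limma). Its lowest references were preCFUE at 309 ± 88.5 and preGM at 335 ± 89.5, still above every CLP array. Among all genes 18.4% were called lower and 9.82% higher, and 3.57% were CLP-low.

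Klf1, the erythroid Krüppel factor, had 38.9, 49.7 and 56.4 in CLP, against 114 to 3200.3 with a median of 1770.5 (-3.48 ± 0.18, adjusted p = 5.35e-09), and preGM was the nearest fraction at 129.9 ± 17. Zfpm1, the GATA partner FOG1, had 38.2, 43.3 and 49.6, against 109 to 1081 with a median of 576 (-3.02 ± 0.18). Tal1 (-2.27 ± 0.11), Nfe2 (-2.38 ± 0.19) and Gfi1b (-2.44 ± 0.15), factors of the red cell and platelet lines, were lower on all CLP arrays too. The 5 higher calls of the list were 3 without CLP replicate 3. Myb, needed in most progenitors, was bright in CLP at 3372, 4174 and 3338, against 1832 to 6548 and did not pass (0.019 ± 0.12, adjusted p = 0.925), but passed as higher under quantile normalization (0.36, adjusted p = 0.0218, limma). In bulk RNA, fewer cells with a transcript and less of it per cell cannot be told apart, and this holds for every gene here.

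**Figure D4:**
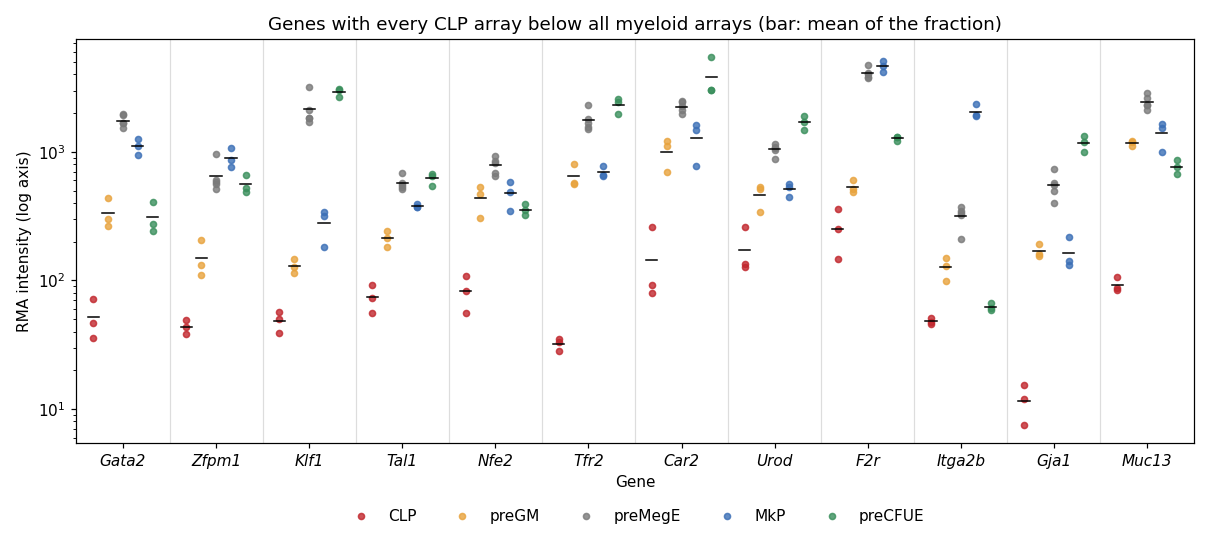
RMA intensity (vertical log axis) of 12 CLP-low genes on each of the 17 arrays, by fraction. Points are arrays, and bars are means of a fraction. CLP arrays lie under all others, with the widest space for Tfr2 and the narrowest for Itga2b.

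Tfr2, the second transferrin receptor, showed the largest fall of all autosomal genes and the widest gap on that side (3.50). It had 33.1, 28.4 and 35.3 units in CLP, against 562 to 2587 with a median of 1529.6 in the myeloid arrays (-4.61 ± 0.13, adjusted p = 1.42e-11). No myeloid fraction was near CLP: preGM, the closest, averaged 644 ± 133 (SD, n = 3).

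Of 23 erythroid and heme genes, 12 were lower and 3 higher in CLP (median difference -0.80), beside 18.4% and 9.82% of all genes. Of the list 8 members were CLP-low, beside 3.57% of all genes. The summed level of the list was 1814 to 3169 in CLP, overlapping 2863 to 4329 in MkP and 3073 to 4210 in preGM. It was 10877 to 15506.5 in preMegE and 23676 to 28658 in preCFUE. The carbonic anhydrases led, with 91.7, 262 and 79.7 units of Car2 in CLP, against 692 to 5444 with a median of 2038 in the myeloid arrays (-3.66 ± 0.30, adjusted p = 5.27e-07). Car1 had 22.1, 47.9 and 29.1, against 50.4 to 8463 with a median of 3981 (-4.46 ± 0.26), and its nearest arrays were those of MkP. Of 6 measured enzymes of heme synthesis on the list, 4 passed as lower. Alad (141 to 228 in CLP, against 357 to 2257), Urod (-2.17 ± 0.18) and Fech (-1.76 ± 0.15), enzymes of an early, a middle and the last step, were CLP-low. Cpox was called with overlapping arrays (-0.89 ± 0.20, adjusted p = 0.00518), a call lost without CLP replicate 3 (adjusted p = 0.0556, limma). Of the other Cpox probe sets, the brighter gave -1.36 with every CLP array below the others, and the dimmer gave -0.13. Uros (-0.34 ± 0.20, adjusted p = 0.22) and Ppox (-0.44 ± 0.27, adjusted p = 0.238) did not pass, and the value of Uros changed sign under quantile normalization (0.023). Gypc, a membrane glycophorin, did not pass either (-0.37 ± 0.18, adjusted p = 0.135). Blvrb, a biliverdin reductase, had 15 to 40.3, against 45.3 to 1064 (-2.45 ± 0.19). The water channel Aqp1 (-3.23 ± 0.21) and Rhag, of the Rh complex (-2.11 ± 0.15), were at the low end of the intensity scale in CLP, and the Rhag gap was only 0.008.

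Of 23 megakaryocyte and platelet genes, 15 were lower and 1 higher (median difference -0.97), beside 18.4% and 9.82% of all genes, and 3 were CLP-low, beside 3.57%. F2r, the thrombin receptor, had 359.8, 250.2 and 148 units in CLP, against 487 to 5114 with a median of 3795 in the myeloid arrays (-2.92 ± 0.16, adjusted p = 1.14e-08). The tetraspanin Cd9 had 16.1 to 21.2, against 23 to 453 (-1.65 ± 0.14). Itga2b, the platelet integrin that also served in the sort, differed by -2.20 ± 0.14. The summed level of the list was 824 to 1459 in CLP. Among the references MkP had the most, 21687 to 23712, and preCFUE the least, 1793 to 2035, while preGM had 2438 to 2999 and preMegE 5374 to 6778. Bright members weigh most in such sums. The list median per array against the myeloid mean was -1.01, -0.78 and -1.14 in CLP. In preCFUE it was -1.1, -0.99 and -0.92, so by that measure CLP and preCFUE overlapped.

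Granule and monocyte genes gave a mixed picture, with 5 of 18 lower and 4 higher (median difference -0.20), beside 18.4% and 9.82% of all genes. Prtn3, a neutrophil protease, was CLP-low at 27.3, 35.8 and 24.5, against 41.3 to 5042 with a median of 129 (-2.77 ± 0.24, adjusted p = 9.06e-07), and preGM alone reached 4478 ± 928. The summed level of the list was 3891 to 7335 in CLP, against 19705 to 25341 in preGM and 4115 to 5208 in preMegE. In MkP it was 1865 to 2374 and in preCFUE 1193 to 1471. Without CLP replicate 1 or 3 the lower calls were 2 and 3, and with preGM out of the mean there was 1.

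Further genes with the largest falls had no common list. Tnfaip2 (-4.30 ± 0.13), the gap junction protein Gja1 (-3.80 ± 0.16), the cell surface mucin Muc13 (-3.61 ± 0.13) and the small GTPase Rab38 (-3.29 ± 0.13) left gaps of more than 2. Gja1 had 7.54, 15.4 and 11.9 units in CLP, against 132 to 1325 with a median of 450.3 in the myeloid arrays. Muc13 had 88, 84.4 and 106, against 668 to 2866 with a median of 1363. Both were far from the lower end of the scale in every myeloid fraction.

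Rab38, with 94.8, 77.7 and 94.7 in CLP, against 683 to 1359 with a median of 1086, was the flattest of these across the references. By contrast, Aldh1a1 (retinal dehydrogenase, -3.63 ± 0.12), Mfsd2b (-3.61 ± 0.12), a sphingosine-1-phosphate transporter of red cells and platelets, and Ces2g, a carboxylesterase (-3.53 ± 0.15), were also dim in preGM, at 24.9 ± 1.95, 20.6 ± 3.74 and 42.5 ± 6.1. Vamp5 (-3.72), Tent5a (-3.85), Grb10 (-3.71), an adaptor of growth factor receptors, C1qtnf12 (-3.55) and Hsd3b7 (-3.54), an enzyme of bile acid synthesis, completed the 15 largest falls.

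Of 18 G2 and M phase genes 16 passed as lower in CLP and 0 as higher (median difference -1.11), beside 18.4% of all genes. The reference differed within itself: the summed level of the list was 2436 to 3563 in CLP, against 3024 to 4689 in preMegE and 4182 to 5240 in preGM. MkP had 7004 to 9672 and preCFUE 8411 to 9080. The sums of CLP and preMegE arrays thus overlapped, and so did their list medians. Only Ccnb2, Ube2c and Plk1 were CLP-low. Ccnb2, a mitotic cyclin, had 57.9, 138 and 68.4 units in CLP, against 138 to 679 with a median of 373 in the myeloid arrays (-1.98 ± 0.26, adjusted p = 6.85e-05, limma), and CLP replicate 2 lay just under the lowest myeloid array. Ube2c (-1.42 ± 0.16), of the anaphase-promoting machinery, and the kinase Plk1 (-1.12 ± 0.17) were similar, and Cdk1 was called with overlapping arrays at 68.6 to 142 in CLP, against 118 to 511 (-1.25 ± 0.23). Top2a did not pass (-0.53 ± 0.19, adjusted p = 0.0518). It passed without CLP replicate 2 (-0.71, adjusted p = 0.0199) or without preMegE replicate 2 (-0.56, adjusted p = 0.0189, both limma). It also passed with preGM out of the mean (adjusted p = 0.0322), with dim genes filtered out (0.0338) and with a pseudocount of 1 (0.0485), while its 2 dimmer probe sets gave 0.36 and 0.16.

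The other growth lists depended on single CLP arrays. S phase genes were lower for 6 of 19 members and higher for 0 (median -0.42), beside 18.4% and 9.82% of all genes. Their summed level was 14282 to 24828 in CLP, overlapping preMegE at 14219 to 21256 and MkP at 20845 to 22520. With CLP replicate 1, 2 or 3 left out, 3, 10 and 2 passed as lower. Quantile normalization gave 4 lower and 1 higher. The replication helicase subunit Mcm7 did not pass, at 3986 to 4962 in CLP and 2919 to 6329 elsewhere (-0.12 ± 0.12, adjusted p = 0.504), and changed sign under quantile normalization (0.19). Genes of ribosome biogenesis were lower for 14 of 19 and higher for 0 (median -0.72), none of them separated. Over all genes the shares were 18.4% and 9.82%. Their summed level was 6133 to 13685.5 in CLP, against 8900 to 11289 in MkP and 11674 to 17600 in preMegE. It was 12495 to 17483 in preGM and 18913 to 22741 in preCFUE, so CLP overlapped every reference but preCFUE. Leaving out CLP replicate 1, 2 or 3 gave 6, 17 and 3 lower calls, and quantile normalization gave 8.

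Ncl, the nucleolin gene, had widely spread CLP arrays. It had 839.9, 2230.4 and 573 units in CLP, against 950.3 to 3613 with a median of 1907 in the myeloid arrays, and did not pass (-0.90 ± 0.36, adjusted p = 0.0807). Without CLP replicate 2 it passed as lower (-1.45, adjusted p = 0.00526, limma), and without preGM replicate 3 likewise (-0.99, adjusted p = 0.0478), as it did with dim genes filtered out (-0.90, adjusted p = 0.0403). Per array, the median of the ribosome list against the myeloid mean was -0.91, -0.14 and -1.13 in CLP replicates 1, 2 and 3. That of the G2 and M phase list was -1.08, -0.73 and -1.39, and that of the recombination list 1.48, 2.11 and 1.90. In these lists replicate 2 stood nearest to the myeloid arrays for growth genes and farthest for recombination genes.

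**Figure D5:**
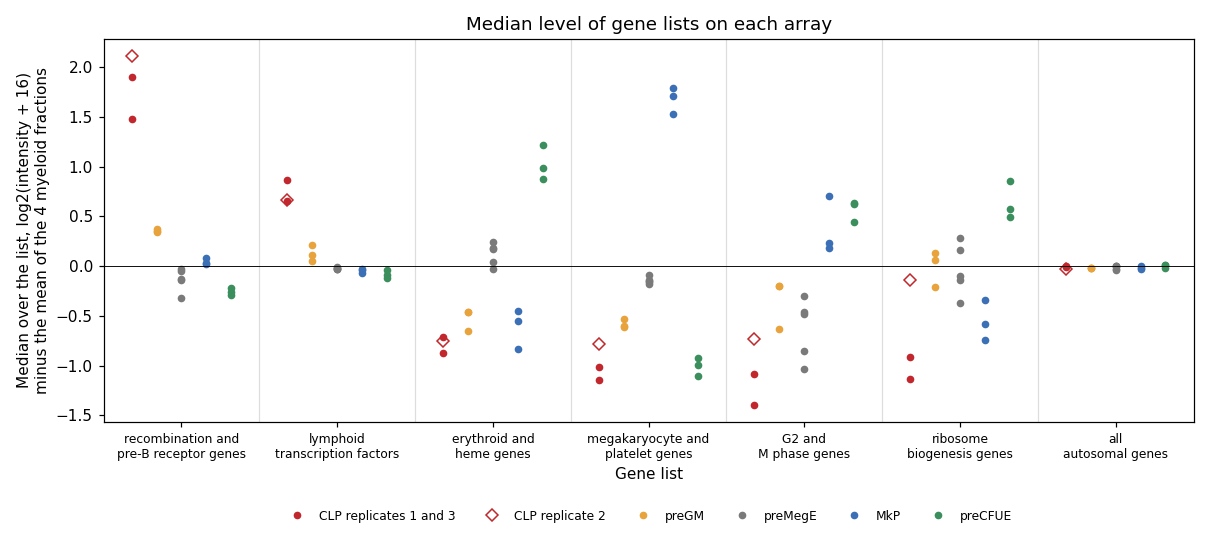
Median of 6 gene lists and of all autosomal genes on each array, as log2(intensity + 16) minus the mean of the 4 myeloid fractions (vertical axis). Each point is an array, and the open diamond is CLP replicate 2. It lies above the other CLP arrays for G2 and M phase and ribosome genes, and all arrays lie near 0 for all autosomal genes.

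Interferon and MHC class I genes were lower for 8 of 22 and higher for 3 (median -0.25), beside 18.4% and 9.82% of all genes. The lower calls were 5 without CLP replicate 1 or without replicate 3. Quantile normalization gave 5 lower and 5 higher (median -0.02). The 3 higher calls were 1 without CLP replicate 2 or 3. Ifih1, an RNA sensor, was the CLP-low member, with 63.6, 121 and 43.7 units in CLP, against 235 to 757 with a median of 465 (-2.41 ± 0.23, adjusted p = 2.79e-06). Of 13 myeloid and erythroid cytokine receptors, 5 were higher and 2 lower (median 0.17), beside 9.82% and 18.4% of all genes. This list was brighter in preGM, whose arrays summed to 3017 to 4146, while those of CLP summed to only 1278 to 1636. By array medians relative to the myeloid mean, preGM (0.56, 0.73 and 1.21) also exceeded CLP (0.52, 0.08 and 0.23). The 5 higher calls refer to the mean of 4 fractions and do not place the list above preGM. Il18r1, a chain of the interleukin 18 receptor, was CLP-high at 122 to 152, against 7.49 to 33.4 (2.32 ± 0.15). Stem or multipotent genes went both ways, 6 higher and 9 lower of 21 (median -0.37), beside the same shares of all genes. The sum of the stem list was 7102 to 10768 in CLP and 1562 to 1724 in preCFUE. The CLP sums overlapped those of preGM (10130.5 to 10993.5), preMegE (5032 to 8191) and MkP (5323 to 7145). Msi2, an RNA-binding protein, was CLP-high (1.37 ± 0.22). Tek, the angiopoietin receptor, was CLP-low at 7.56 to 9.06 in CLP, against 9.9 to 168 (-1.17 ± 0.21).

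Markers of other blood cells were read in the same arrays. Dendritic cell markers were higher for 6 of 12 and lower for 1, beside 9.82% and 18.4% of all genes. Their summed level was 3990 to 5828 in CLP, 3500 to 3748 in preGM and 665 to 848 in the remaining fractions. They include Flt3, Ccr9 and Tcf4 (1.43 ± 0.13), which are also CLP-high or gate genes here. Siglech, more particular to plasmacytoid dendritic cells, had 26.1 to 49.9 units in CLP, against 16.7 to 28.5 (0.46 ± 0.10, adjusted p = 0.00516), a call lost without CLP replicate 3 (adjusted p = 0.0567, limma).

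Counts for the remaining marker lists were small and are to be read against the 9.82% of all genes called higher and the 18.4% called lower. Markers of mature B and plasma cells were higher for 3 of 10, including Sdc1 (156 to 328 in CLP, against 4.85 to 59.5) and Cd37 (1.32 ± 0.12). Those of T and NK cells were higher for 2 of 15, including Klrd1 (1.72 ± 0.13), and for 1 without CLP replicate 1 or 3. The summed level of that list was 534 to 660.4 in CLP and 247 to 796 in the myeloid arrays. Markers of macrophages gave 2 of 12 higher (1 without CLP replicate 1), those of mast cells and basophils 1 of 10 higher and 1 lower (Cpa3, a mast cell protease, -1.55 ± 0.14), and those of eosinophils 0 higher and 1 of 6 lower. Endothelial and stromal markers gave 0 higher and 2 of 12 lower, both close to the share of all genes, and neutrophil markers 0 of 12 in either direction in limma, with 1 higher without CLP replicate 2. The summed level of the neutrophil list was 175 to 336 in CLP and 191 to 1885 in the myeloid arrays. No marker was at 0, since the lowest value of the table is 4.33. The part of such cells in the results was not tested.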

How the data were processed

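The authors deposited RMA intensities as unlogged values for each probe set on each array. RMA is named in the submitters' processing notes and in the design text. Per the labels' protocols, RNA came from cells sorted into lysis buffer. The design text describes a small-sample method whose later transcription round can leave RNA short at its 5-prime end. No RMA version is given in the sources used here.

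Gene symbols came from the platform's annotation: 34945 of 45101 probe sets had 1 symbol, 932 several, 9160 were not listed, and 64 were controls. The probe set with the highest mean stood for each of 18193 genes, 17401 of them autosomal by RefSeq. Values were taken as log2(intensity + 16). A single limma 3.58.1 fit used all 17 arrays, grouped by fraction (R 4.3.3). CLP was set against the mean of 4 fraction means, with Benjamini-Hochberg adjustment over all 18193 genes and a threshold of 0.05. Adjusted p-values in the text are limma's. Tables and figures used Python 3.11.15, pandas 2.3.3 and matplotlib 3.10.9.

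On simulated data with known changes the fit was tested before use. Array number (3 to 5 per fraction) limits the precision. Members and gene lists were chosen with earlier results of these data known, so they are no independent support. Named genes were the sort genes, the 3 markers, the 15 largest differences and 5 widest gaps on each side, up to 6 separated and up to 2 bright members per list that did not pass, and 2 genes on each side of the edge of the rule. Others are said to be chosen after the values were seen, or are Rag2, Igll1, Cd79a, Plcg2, Pax5, Irf8, Irf4, Mpo, Csf1r, Cd93, Alad, Fech, Cpox, Ppox, Cdk1 and Siglech, which were chosen in that way too. Alternatives covered the pseudocount, probe set choice, normalization, filters, weights, the reference, a 3-prime covariate, the replicate block and each array left out. Genes on X and Y are not described.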

Additional observations from a re-analysis of the deposited data

Results flagged for a closer look

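In the preMegE fraction, the only one with enough arrays for this check, 1 array stood far from the other 4 for 8 of the 130 genes named here. Chance alone marks about 1 gene in 20. Ighm had 582.7 units on preMegE replicate 5, against 10.8 to 22.03 on the others. Zfpm1 had 971.1 on replicate 3 (517 to 601 on the others), Bcl11a had 2041 on replicate 3 (1349 to 1521) and Blnk had 14.4 on replicate 3 (17.9 to 18.96). Replicate 2 had 209.4 units of Itga2b (324 to 376), 19.2 of Gimap4 (7.02 to 9.23) and 31.65 of Jun (17.97 to 18.8). Replicate 5 had 12.9 units of Pgr (9.30 to 9.98). The Bcl11a value lay above the CLP arrays (921 to 1542), a gene that did not pass the test. For the other 7 genes the array stayed on the myeloid side of every CLP array.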

How the results depend on the processing

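Leaving out 1 array at a time gave 1069 to 2464 genes higher and 1760 to 4023 lower in CLP, with 432 to 1208 genes above and 625 to 2327 below all myeloid arrays. Both ends of each range came from a CLP array, except the lower ends of the last 2. The filter on SD over mean above 0.5 left 667 higher, 904 lower, 234 above and 226 below, since it keeps fewer genes. A reference without preGM gave 812 above. Asking for a gap of at least 1 left 54 above and 36 below. Every other count stayed within 1.5 times its value, among them 2236 higher and 2292 lower under quantile normalization. With the replicate number as a replicate block, 1304 genes were higher and 2590 lower. Same-numbered arrays of different fractions did not deviate together as a set (median correlation -0.045 over 30 pairs, from -0.543 to 0.508). Arrays with different numbers gave a median of 0.03 over 84 pairs, from -0.602 to 0.595. With so wide a spread in both sets, the medians cannot tell whether the numbers pair arrays.

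Of the 130 named genes, 113 kept direction and side of the threshold in every fit. Values that changed sign were Fcgr2b (0.095), Mcm7 (0.19) and Uros (0.023) under quantile normalization, Cd22 without CLP replicate 3 (-0.024, with values up to 0.24 when another array was left out), H2-Ab1 without CLP replicate 2 (-0.050, otherwise up to 0.46), and Gphn with the mean over probe sets (0.53). Myb changed sign with array weights (-0.018), with equal weight for each myeloid array (-0.050), with the mean over probe sets (-0.42), without CLP replicate 2 (-0.086, against up to 0.075 without another array) and without preCFUE replicate 1 (-0.013). The cause was not tested. Intensities carry no background level, so dim values bound nothing, and 47.3% of values lay under 16.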

Other observations

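Other CLP-high genes were picked out after their values were seen. All 8 measured members of the Gimap family of lymphocyte GTPases, which share chromosome 6, were higher in CLP in limma. Their differences were 0.57 to 4.52, and 5 of them were CLP-high. Among all genes 9.82% were called higher and 2.45% were CLP-high. Gimap8 had 803, 1302 and 729.7 units in CLP, against 14.7 to 330.2 in the myeloid arrays, and Gimap7 had 208, 341 and 180.1, against 7.11 to 36.1. Esr1, the estrogen receptor alpha, had 547, 752 and 553 units in CLP, against 13.3 to 440.2 with a median of 26.5 in the myeloid arrays (3.13 ± 0.22, adjusted p = 1.24e-07, limma), and preGM held the upper end at 364 ± 74 (SD, n = 3). Pgr, the progesterone receptor, had 313, 261 and 223, against 9.3 to 107 with a median of 11.8 (2.85 ± 0.10, adjusted p = 1.37e-10).

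Il18rap, the partner of Il18r1, had 177, 298 and 375 units in CLP, against 19.1 to 129 (2.42 ± 0.14), and Icos, a costimulatory receptor of T cells, had 223, 152 and 195, against 9.77 to 29.4 (2.75 ± 0.12). The syndecan Sdc4, a heparan sulfate proteoglycan, had 209, 211 and 204, against 13.4 to 26.9, with CLP arrays that lay close together (2.76 ± 0.064, adjusted p = 1.51e-12). Beside Fos, its dimer partners Jun (1.18 ± 0.13) and Jund (1.48 ± 0.14) were CLP-high.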
